A study of Mus musculus with 14 samples.

Results

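The genes described here are the mouse laminin chains, the collagen IV chains, the nidogens and the integrin subunits, taken by their gene names on an expression array. There were 43 of them, measured by 91 of the 41174 probes, and all 43 were among the 23653 genes tested. They comprised 11 laminin chains, 6 collagen IV chains, 2 nidogens and 24 integrin subunits. Itgb1, the partner shared by many integrins, is the sorted protein CD29 and was kept outside the set. Of the 91 probes 86 passed the filter on dim signal, and where a gene had several probes, as 27 did, the brightest was used.

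A basement membrane is the thin sheet of matrix on which epithelium rests. Laminins, each a trimer of an alpha, a beta and a gamma chain, and collagen IV form its networks, and nidogens join them. Integrins are alpha-beta pairs in the cell membrane that bind these proteins. In the mammary gland the basal, contractile cells sit directly on this sheet and the luminal cells lie inside them, while fibroblasts, vessels and fat lie outside.

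The data were 14 arrays of 2 colours, hybridised with RNA from sorted mammary cells of FVB mice. Wild-type FVB/N-J mice, virgin or pregnant, gave P4 (CD24+CD29hi, labelled as enriched in mammary stem cells), P5 (also given as CD24+CD29hi, labelled as enriched in luminal progenitors) and P6 (CD24lo, labelled as differentiated epithelial cells), with 2 arrays for each population in each condition. Virgin L2G85 mice, FVB/N animals that carry a luciferase and GFP transgene, gave lineage-negative cells with high GFP (GFPhi, labelled as stem cell enriched) and low GFP (GFPlo, labelled as depleted), with 1 array each. Neither the day of pregnancy nor the age, nor whether the 2 arrays of a group came from separate mice, is given, so a p-value here covers the variation among these samples only, and that variation may be technical. Each level below is a log2 ratio of the sorted cells over a reference RNA from 11 mouse cell lines, a difference is between 2 such levels, and levels of different genes cannot be set against each other.

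The labels were checked against markers of cell types. All 13 basal (myoepithelial) markers were higher in virgin P4 than in virgin P5 (median log2 difference 4.79), and 13 of 15 luminal markers were lower (median -2.43). In pregnancy the contrast was weaker. Of the basal markers 8 were higher in P4 (median 2.86), and of the luminal markers 4 were lower and 1 higher (median -0.27). The luminal median level was 0.74 and 1.94 in pregnant P4 and 1.23 and 1.92 in pregnant P5. P6 is labelled epithelial, yet all 14 fibroblast markers were higher in P6 than in P4 and than in P5, in both conditions, and their median level was 4.11 to 5.23 on the P6 arrays against -1.62 to -0.27 on those of P4 and P5. GFPlo had a fibroblast median of 3.71 and GFPhi of 1.19. Of 9 fast skeletal muscle genes 7 were higher in virgin P5 than in P4, and 7 than in P6. Their median level was 2.52 and 2.80 on the virgin P5 arrays. The adipocyte median was 3.92 and 1.06 on the arrays of pregnant P4. The part of these cells in the results below was not tested, and in sorted bulk samples fewer cells of a type and less RNA per cell cannot be told apart. Itgb1 itself lay at -0.35 and -0.14 in virgin P4 and at -1.53 and -1.34 in virgin P5 (1.19, SE 0.48, adjusted p = 0.195), and in pregnancy it was higher in P4 (2.42, SE 0.48, adjusted p = 0.00817).

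A gene was called highest in a population when it was called higher there than in both others. By that rule no gene can be highest in both P4 and P6. In virgin mice some members were called highest in P4 and some in P6, and none in P5. The 6 genes called higher in P4 than in both P5 and P6 were Lama1, Lama3, Lamb3, Col4a6, Itga3 and Itga6. Among all genes tested 2.33% met that rule. Another 6 were higher in P6 than in both others, Lama2, Lama4, Nid1, Nid2, Itga11 and Itgb7, against 4.4% of all genes. The 6 called lower in P5 than in both others were Col4a1, Col4a2, Lamb1, Lamc1, Nid1 and Itga9, against 3.55% of all genes. Nid1 is in this set and in that of P6. No member was called higher in P5 than in both others, a rule that 3.39% of all genes met. At that share few members would meet it, so their absence says little about the set. The first of these sets holds Lama3 and Lamb3 of the hemidesmosome laminin and 2 laminin receptor subunits, and the second holds both nidogens and chains known from muscle and vessels.

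Calls are from limma with Benjamini-Hochberg adjustment over all genes tested, at an adjusted p under 0.05. Between virgin P4 and P5, 14 of the 43 genes were called and all 14 were higher in P4, where 11.4% of all genes were called, 6.57% higher and 4.8% lower. The median difference of the 43 genes was 0.72, against 0.03 over all genes. After centring each array on its median 8 were called, each higher in P4. Between virgin P4 and P6, 14 were called, 8 higher and 6 lower in P4 (9 and 4 when each array was only centred on its median), where 10.3% of all genes were called (4.88% higher, 5.45% lower). When the replicate number was a block, which pairs arrays within a condition, 24 were called in that comparison, and also 24 with scan or with slide as a block. Of all genes, the replicate, scan and slide blocks called 5168, 5170 and 4989 there, against 2443 without a block. Between virgin P5 and P6, 20 were called, 6 higher and 14 lower in P5, where 16.1% of all genes were called, 7.32% higher and 8.82% lower.

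Between pregnant P4 and P5, 19 were called and all 19 were higher in P4, against 22.6% of all genes called, 11.7% higher and 10.9% lower. Between pregnant P4 and P6, 11 were higher and 8 lower in P4 (12 and 5 with median centring), where 12.1% of all genes were called, 6.2% higher and 5.87% lower. Between pregnant P5 and P6, 6 were higher and 15 lower in P5, where 26.9% of all genes were called, 13.7% higher and 13.2% lower. In pregnant P4, 9 genes were called higher than in both other populations, against 3.53% of all genes, among them Lama1, Lama3, Lamb3, Col4a5, Col4a6, Itga1, Itga3 and Itga6. In pregnant P5, 10 were called lower than in both others (6.86% of all genes), and in pregnant P6, 8 were called higher (4.91%). The 3 comparisons of a condition share arrays, so their differences are not independent of each other.

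The calls made up 118 pairs of a gene and a comparison, and 61 of these kept their call under all 24 alternative settings, each fit without 1 array included. Between virgin P4 and P5 the 6 kept were Lama3, Lamb3, Col4a1, Col4a2, Col4a6 and Itga9. Between virgin P4 and P6 the 9 kept were Lama1, Lama2, Lama3, Lamb3, Col4a6, Nid1, Itga3, Itga6 and Itga11. Between virgin P5 and P6, 12 were kept, and between the pregnant populations 12 (P4 and P5), 8 (P4 and P6) and 13 (P5 and P6). Lama3 and Lamb3 were kept in every comparison of P4 with P5 or P6, and Lama2, Nid1 and Itga11 in every comparison of P4 or P5 with P6.

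**Figure D1:**
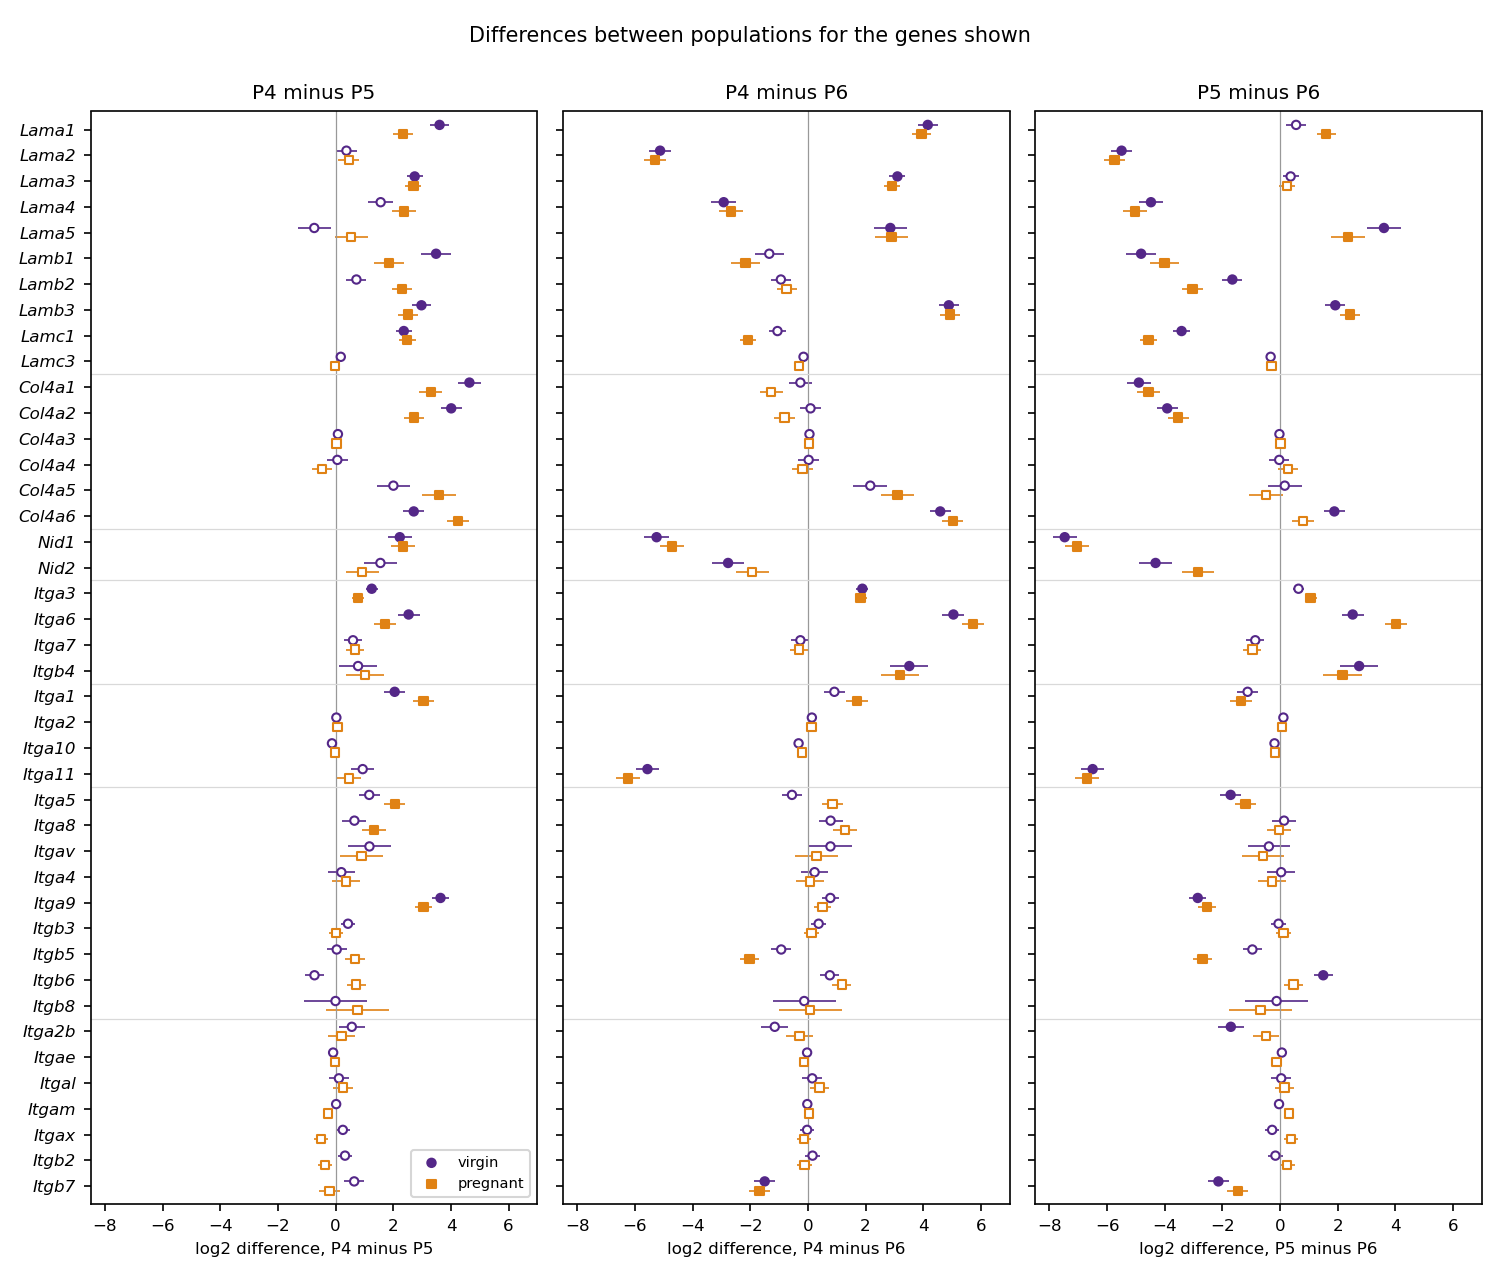
Log2 difference ± SE of 42 of the genes between P4 and P5, P4 and P6, and P5 and P6, in virgin (circles) and pregnant (squares) mice; filled symbols passed limma at an adjusted p under 0.05 and grey lines part the classes. In the P4 minus P5 panel every filled symbol lies above 0, 13 in virgin and 18 in pregnant mice.

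Lama3 and Lamb3 are chains of the laminin of hemidesmosomes, the rivets that hold basal cells to the sheet. Lamb3 was at 3.97 and 4.21 in virgin P4, 0.62 and 1.61 in P5 and -0.99 and -0.60 in P6, and in pregnancy at 3.96 and 4.54, 1.49 and 1.99 and -0.76 and -0.60. Both P4 arrays of each condition lay above every P5 array, and both P5 arrays above every P6 array. Lamb3 was 7.87-fold higher in virgin P4 than P5 (log2 difference 2.98, SE 0.34, adjusted p = 0.000895) and 29.6-fold higher than in P6 (4.89, SE 0.34, adjusted p = 6.66e-05). P5 exceeded P6 as well, by 1.91 (adjusted p = 0.00528) in virgin and by 2.42 (adjusted p = 0.00107) in pregnant mice.

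Lama3 was at 3.58 and 3.49 in virgin P4 and 2.74 and 3.74 in pregnant P4. Its 8 arrays of P5 and P6 ran from 0.27 to 0.85, below all 4 arrays of P4. The difference from P5 was 2.74 (SE 0.28, adjusted p = 0.000443) in virgin and 2.70 (SE 0.28, adjusted p = 0.000323) in pregnant mice, and P5 and P6 were not called apart (0.36, adjusted p = 0.552 and 0.23, adjusted p = 0.621). The other Lama3 probe gave 0.12 and -0.13 for P4 minus P5, so the difference rests on the brighter probe.

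Lama1, the alpha chain best known from embryonic basement membranes, was also highest in P4, and virgin P5 and P6 were not called apart. It was at 4.20 and 4.49 in virgin P4, 0.52 and 0.96 in P5 and 0.16 and 0.22 in P6, and in pregnancy at 3.73 and 4.68, 1.63 and 2.10 and 0.57 and -0.04. Virgin P6 replicate 1 and pregnant P6 replicate 2 were not well above background for this probe. P4 exceeded P5 12.2-fold in virgin mice (3.60, SE 0.34, adjusted p = 0.000311) and by 2.34 (SE 0.34, adjusted p = 0.00169) in pregnant mice, although with the scanner's own log ratio the pregnant difference was -0.80 (adjusted p = 0.503). The virgin call was also lost with that ratio (1.66, adjusted p = 0.285). P5 exceeded P6 in pregnancy (1.60, adjusted p = 0.00859), and the scanner's ratio gave 4.82 there. This call was lost without P5 replicate 2 or P6 replicate 2 (adjusted p 0.0505 and 0.0646), with local backgrounds as given (0.85, adjusted p = 0.217) and with the mean over probes (1.10, adjusted p = 0.0644). Beside these chains the basal and myoepithelial markers stood higher in P4 than P5, 13 of 13 in virgin mice and 8 of 13 in pregnancy (median 2.86), and their part in the differences was not tested.

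Lama5, the alpha chain of most adult epithelial basement membranes, was higher in P4 and in P5 than in P6 in both conditions. Its virgin levels were 2.01 and 2.12 in P4, 2.86 and 2.75 in P5 and -0.93 and -0.66 in P6, and its pregnant levels 0.22 and 0.87, -0.24 and 0.25 and -3.44 and -1.27. P5 was the highest of the virgin groups, 12.1-fold over P6 (3.60, SE 0.58, adjusted p = 0.0029), and did not differ from P4 beyond the error (-0.74, SE 0.58, adjusted p = 0.614). P4 exceeded P6 by 2.86 (SE 0.58, adjusted p = 0.0152) in virgin and 2.90 (adjusted p = 0.0121) in pregnant mice. The virgin one was lost without either P4 or either P6 array (adjusted p 0.0615 to 0.0957), the pregnant one without P4 replicate 2 (0.0755), and P5 over P6 in pregnancy (2.36, adjusted p = 0.0168) without P5 replicate 2 (0.101).

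Lama2 and Lama4 were higher in P6 than in P4 and P5 in both conditions. Lama2, the alpha chain known from muscle and nerve, was at 5.03 and 5.70 in virgin P6 and 5.14 and 6.32 in pregnant P6, while the 8 arrays of P4 and P5 ran from -0.32 to 0.50. P4 was 34.9-fold lower than P6 in virgin mice (-5.12, SE 0.37, adjusted p = 7.38e-05) and 39.2-fold lower in pregnancy, and P4 and P5 were not called apart (0.37, adjusted p = 0.736). Lama4, the alpha chain of vessels, was graded. It lay at 2.22 and 2.87 in virgin P4, 0.95 and 1.02 in P5 and 5.16 and 5.77 in P6, and in pregnancy at 2.59 and 3.90, 0.91 and 0.83 and 5.60 and 6.22. P4 minus P6 was -2.92 (SE 0.43, adjusted p = 0.00291), and P4 exceeded P5 in pregnancy (2.37, SE 0.43, adjusted p = 0.00504) but not past the threshold in virgin mice (1.56, adjusted p = 0.053, and adjusted p = 0.00804 with the replicate block). With local backgrounds as given, P4 minus P6 of Lama4 was -0.99 in virgin mice (adjusted p = 0.665), and 2.69 (adjusted p = 0.121) was its P4 minus P5 in pregnancy. The 14 fibroblast markers were lower in P4 than P6 by a median of -5.06 in virgin and -4.91 in pregnant mice, and their part in the levels of Lama2 and Lama4 was not tested.

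Lamb1 and Lamc1, the beta and gamma chains of most laminins, were lower in P5 than in P4 and P6 in both conditions. Lamb1 was at 1.39 and 1.75 in virgin P4, -1.95 and -1.88 in P5 and 2.65 and 3.17 in P6, and in pregnancy at 2.60 and 1.71, 0.63 and -0.02 and 5.10 and 3.52, with a saturated spot on P6 replicate 1. Lamc1 was at 1.22 and 1.28, -1.05 and -1.18 and 2.36 and 2.25 in the virgin and at 1.76 and 1.08, -0.87 and -1.26 and 3.88 and 3.13 in the pregnant populations. All P5 arrays lay below all others for both genes within each condition. P5 was 28.3-fold below P6 for Lamb1 (-4.82, SE 0.51, adjusted p = 0.000274) and 10.7-fold for Lamc1 (-3.42, SE 0.29, adjusted p = 7.57e-05) in virgin mice. P4 exceeded P5 by 3.48 (SE 0.51, adjusted p = 0.00283) and 2.36 (SE 0.29, adjusted p = 0.00115), calls that median centring ended (3.1, adjusted p = 0.136, and 1.96, adjusted p = 0.225). The call of Lamb1 between pregnant P4 and P5 (1.85, adjusted p = 0.0316) was lost in 7 of the 12 fits without 1 array (adjusted p 0.0506 to 0.18). Those were the fits without either array of virgin P4, virgin P5 or pregnant P5, or without pregnant P4 replicate 1. Between pregnant P4 and P6 (-2.16, adjusted p = 0.0258) it was lost without P4 replicate 2 or P6 replicate 1 (0.104 and 0.146). Lamb2 differed between P5 and P6 (-1.66, adjusted p = 0.0118 in virgin, -3.04, adjusted p = 0.000332 in pregnant mice), the virgin call being lost without P5 replicate 1 (0.0853). Lamc3, another gamma chain, had no call in any comparison of populations, and its levels ran from -0.11 to 0.41.

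**Figure D2:**
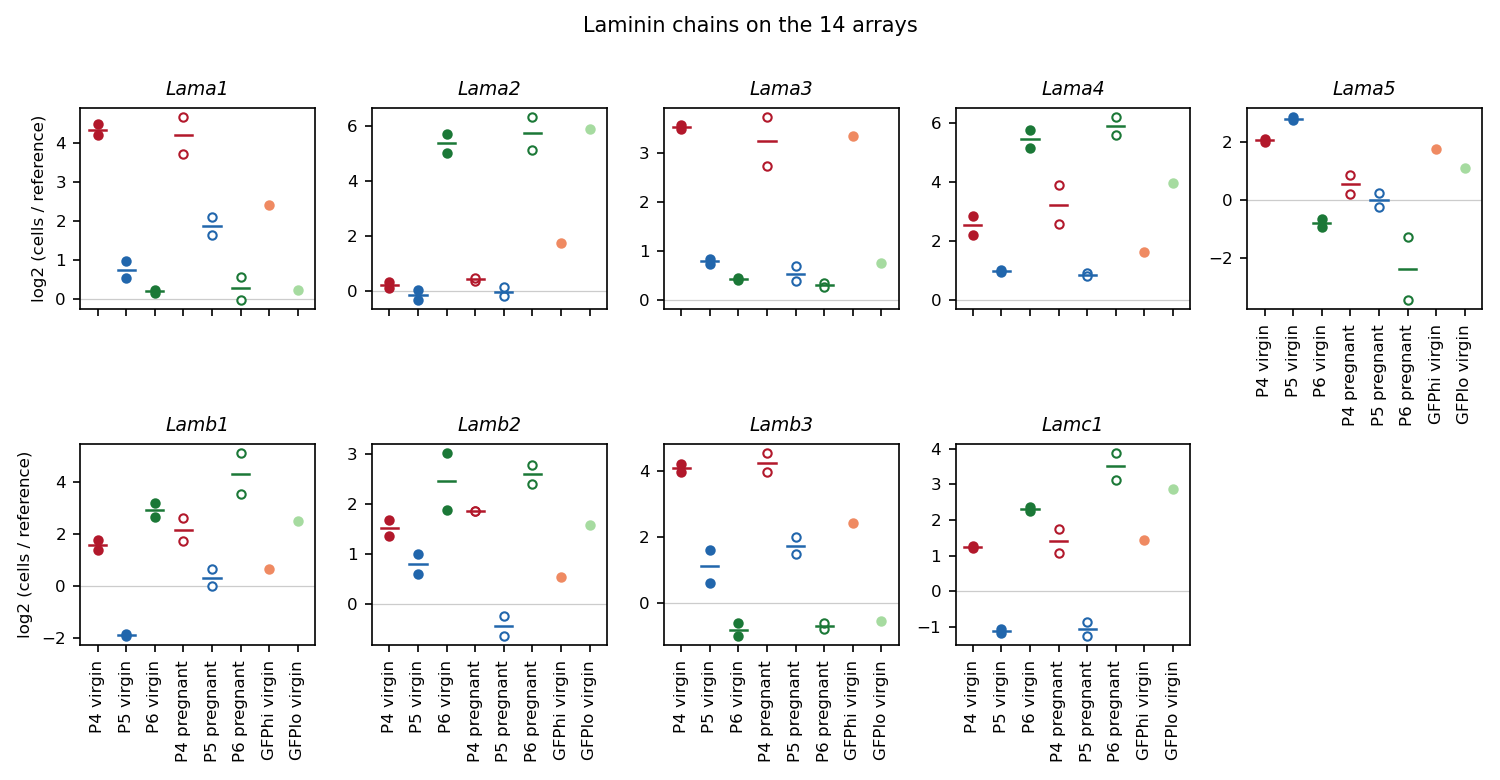
Level of 9 laminin chains on each of the 14 arrays, as log2 of the sorted cells over the reference RNA; filled points are virgin and open points pregnant mice, bars are means of 2 arrays, and each panel has its own scale. Among P4, P5 and P6, Lama3 and Lamb3 are highest on the P4 arrays and Lama2 on the P6 arrays, while Lamb1 and Lamc1 are lowest on the P5 arrays.

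The collagen IV chains fell into 2 pairs. Col4a1 and Col4a2, whose products form the common collagen IV trimer, were high in P4 and in P6 and low in P5. Col4a1 was at 2.56 and 3.19 in virgin P4, -1.95 and -1.59 in P5 and 2.58 and 3.68 in P6, and in pregnancy at 3.02 and 3.56, 0.35 and -0.36 and 4.71 and 4.41. Col4a2 was at 2.34 and 2.64, -1.61 and -1.43 and 1.87 and 2.93 in virgin mice, and at 2.58 and 2.77, 0.38 and -0.46 and 3.46 and 3.53 in pregnant mice. The P5 arrays lay below all others for both genes, and P4 and P6 overlapped in virgin mice. Col4a1 was 24.9-fold higher in virgin P4 than P5 (4.64, SE 0.41, adjusted p = 0.000218), with 4.51 on the arrays of scan 1 and 4.77 on those of scan 2, and P4 minus P6 was -0.26 (SE 0.41, adjusted p = 0.892). Col4a2 differed by 4.01 (SE 0.36, adjusted p = 0.000237) between virgin P4 and P5, and by 0.09 (adjusted p = 0.975) between P4 and P6. P5 was below P6 as well, by -4.90 (adjusted p = 7.33e-05) for Col4a1 and -3.92 (adjusted p = 0.00013) for Col4a2. Some markers of vessels were also higher in P4 than P5. Of 15 endothelial markers 5 were higher and none lower in virgin P4 than P5 (median 2.06), and 9 higher and 1 lower in pregnancy (median 2.07). Of 8 pericyte markers 3 and 5 were higher. Between virgin P4 and P6, 1 endothelial and 1 pericyte marker were lower in P4 and none of either list higher. In pregnancy 4 endothelial markers were higher in P4 than P6 and 1 pericyte marker lower. All 13 basal markers were higher in virgin P4 than P5, and 11 higher than in P6. The part of all these markers in the difference of Col4a1 and Col4a2 was not tested.

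Col4a5 and Col4a6, the chains of another trimer, found under some epithelia and around smooth muscle, were highest in P4 among P4, P5 and P6. Col4a6 was at 4.84 and 4.59 in virgin P4, 2.38 and 1.63 in P5 and 0.45 and -0.20 in P6, and in pregnancy at 3.86 and 4.13, -0.30 and -0.18 and -1.53 and -0.53. P4 exceeded P5 6.54-fold in virgin (2.71, SE 0.37, adjusted p = 0.00209) and 18.8-fold in pregnant mice (4.24, SE 0.37, adjusted p = 0.000164), with no overlap. The other 2 Col4a6 probes gave 0.55 and 1.59 for virgin P4 minus P5, and -0.06 and 2.26 in pregnancy, so the size rests on the probe. Virgin P5 over P6 (1.88, adjusted p = 0.00859) was lost without P5 replicate 1 or P6 replicate 2 (adjusted p 0.0664 and 0.0674). Col4a5 was at 1.84 and 1.61, 0.14 and -0.70 and -0.05 and -0.83 in virgin P4, P5 and P6, and at 3.42 and 1.87, -0.62 and -1.27 and 0.13 and -1.05 in pregnancy. Its P4 arrays lay above those of P5 and P6. P4 minus P5 passed in pregnancy (3.59, SE 0.59, adjusted p = 0.00298) but not in virgin mice (2.00, SE 0.59, adjusted p = 0.0664, and adjusted p = 0.00072 with the replicate block), and P4 minus P6 passed in pregnancy (3.1, adjusted p = 0.00902), and this call was lost without P6 replicate 2 (2.51, adjusted p = 0.0544), with median centring (3.41, adjusted p = 0.0648) and on only the arrays compared (adjusted p = 0.124). Col4a3 and Col4a4, the chains of kidney and lung collagen IV, had no call and ran from 0.08 to 0.36 and from -0.92 to 0.16 over P4, P5 and P6, although another Col4a4 probe gave -2.62 for virgin P5 minus P6 and the replicate block called Col4a4 between pregnant P4 and P5 (-0.47, adjusted p = 0.0447).

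The genes of each pair lie head to head in the genome, and the bases between or before their starts are shown because the genes of a pair are neighbours whose levels were given together above. RefSeq promoter windows on build GRCm38.p6 were matched for 28 of the 43 genes. The starts of Col4a1 (minus strand) and Col4a2 (plus strand) lie 21 bases apart on chromosome 8 with overlapping first bases, and those of Col4a6 (minus) and Col4a5 (plus) 1343 bases apart on the X chromosome. The stretch from the Col4a2 start to the Col4a1 start (chr8:11312805-11312826, plus strand) and the 250 bases upstream of Col4a5 (chrX:141475169-141475418, plus strand) and of Col4a6 (chrX:141474077-141474326, minus strand) read as follows, with matches to the GC box GGGCGG, on either strand, in capitals.
Col4a1 to Col4a2: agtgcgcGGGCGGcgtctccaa
Col4a5: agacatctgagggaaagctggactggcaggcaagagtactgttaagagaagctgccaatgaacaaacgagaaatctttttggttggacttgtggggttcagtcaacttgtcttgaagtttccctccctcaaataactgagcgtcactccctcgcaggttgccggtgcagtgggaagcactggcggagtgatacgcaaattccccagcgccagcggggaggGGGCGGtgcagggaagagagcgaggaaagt
Col4a6: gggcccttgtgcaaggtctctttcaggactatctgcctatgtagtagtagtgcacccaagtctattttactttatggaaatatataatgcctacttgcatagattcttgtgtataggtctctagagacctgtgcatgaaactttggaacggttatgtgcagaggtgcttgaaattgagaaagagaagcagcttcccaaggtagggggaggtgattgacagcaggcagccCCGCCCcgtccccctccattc
Each of the 3 stretches holds 1 match. The Col4a1 to Col4a2 stretch lies after the start of both genes, so the counts of windows before a start do not cover it. The windows of 250 bases before Col4a1 and Col4a2 hold 0 and 2 GC boxes. Over all windows of 250 bases before a start, 32.7% hold this motif and 33.9% a CCAAT box, searched on both strands. Of 31 windows of the members, 12 hold the first and 8 the second. A match is a description of the letters only.

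Among P4, P5 and P6 both nidogens stood highest in P6. Nid1 was at -0.02 and -0.25 in virgin P4, -1.81 and -2.90 in P5 and 5.44 and 4.79 in P6, and in pregnancy at 0.34 and 0.36, -1.57 and -2.42 and 4.74 and 5.38, with a saturated spot on pregnant P6 replicate 1. The 3 populations did not overlap in either condition. P5 was 177-fold below P6 in virgin mice (-7.47, SE 0.42, adjusted p = 1.06e-05), and virgin P4 38-fold below P6 (-5.25, SE 0.42, adjusted p = 0.000127). Pregnant P5 minus P6 was -7.05 (SE 0.42, adjusted p = 1.11e-05), with 1 of the 2 P6 arrays saturated. P4 minus P5 was 2.22 (SE 0.42, adjusted p = 0.0103) in virgin mice, a call lost without P4 replicate 1, P4 replicate 2 or P5 replicate 2 (adjusted p 0.0559 to 0.0758), and 2.34 (adjusted p = 0.0048) in pregnancy. Nid2 was at -1.81 and -2.21, -3.29 and -3.83 and 0.64 and 0.89 in virgin P4, P5 and P6, and at -0.23 and 0.71, -0.44 and -0.92 and 3.12 and 1.23 in pregnancy. The P6 arrays again lay above those of P4 and P5 in each condition. Virgin P5 was 20-fold below P6 (-4.32, SE 0.57, adjusted p = 0.000934). Virgin P4 minus P6 was -2.77 (SE 0.57, adjusted p = 0.0159), lost without either P4 or either P6 array (adjusted p 0.0646 to 0.115), and the pregnant one did not pass (-1.93, adjusted p = 0.065, and adjusted p = 0.0405 with the replicate block). The fibroblast markers moved with Nid1 and Nid2, 14 of 14 higher in P6, and their part was not tested.

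**Figure D3:**
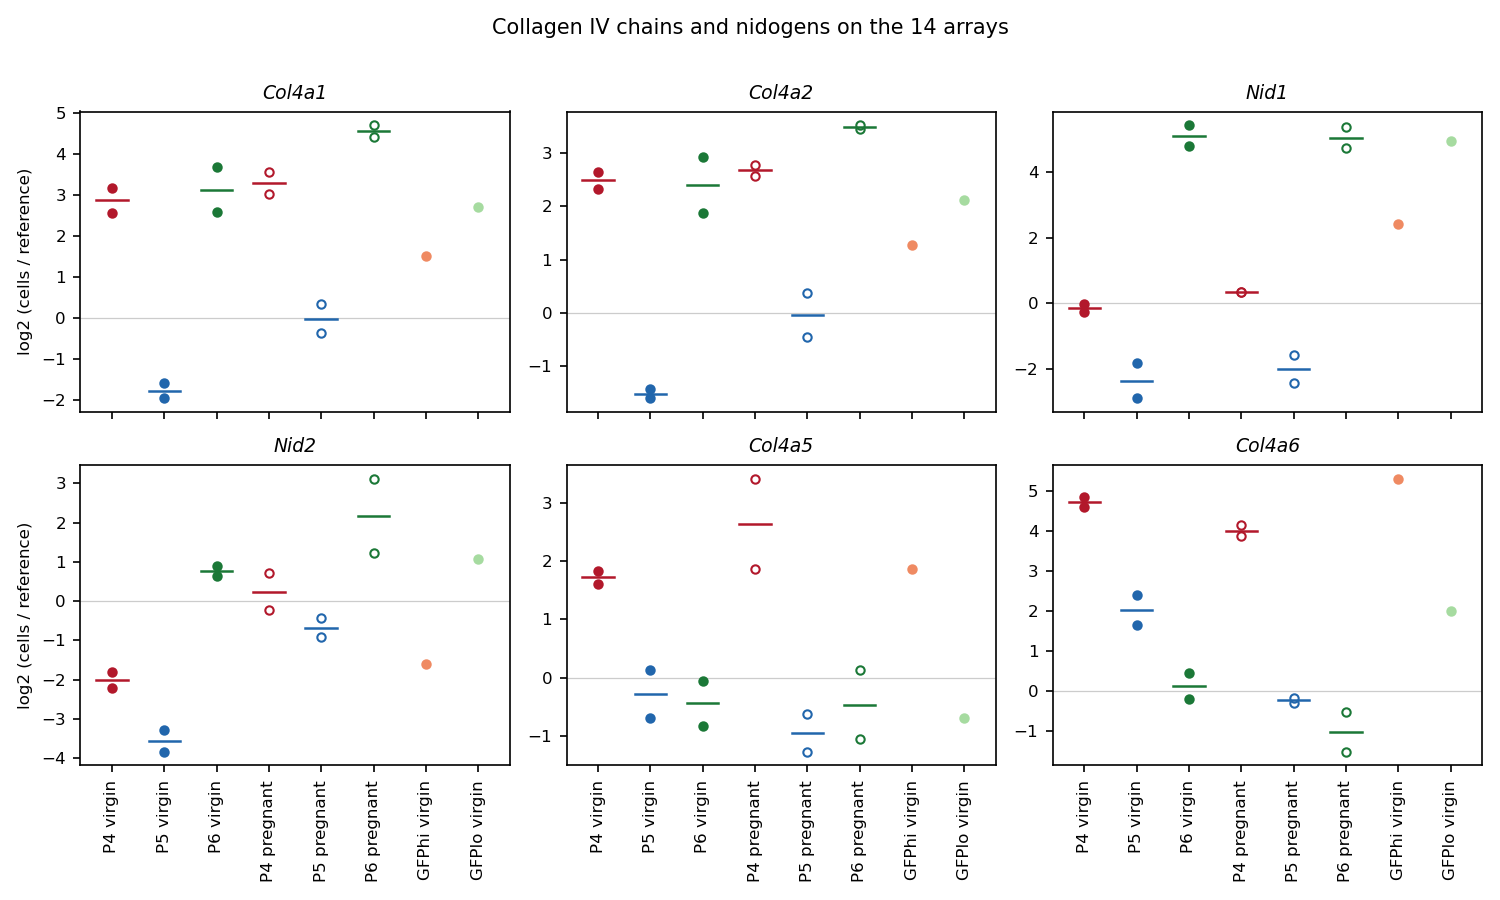
Level of 4 collagen IV chains and both nidogens on each of the 14 arrays, as log2 of the sorted cells over the reference RNA; filled points are virgin and open points pregnant mice, bars are means of 2 arrays. Among P4, P5 and P6, Col4a1 and Col4a2 are lowest on the P5 arrays, Nid1 and Nid2 are highest on the P6 arrays of each condition, and Col4a5 is highest on the P4 arrays of each condition.

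Of the 4 laminin-binding integrin subunits, 3 were higher in P4 than in P6 in both conditions. Itga6, which pairs with Itgb4 in hemidesmosomes, was at 3.26 and 3.12 in virgin P4, 0.78 and 0.54 in P5 and -1.32 and -2.38 in P6, and in pregnancy at 3.87 and 3.44, 2.20 and 1.69 and -2.47 and -1.67. The order P4 over P5 over P6 held on every array. P4 exceeded P6 33.1-fold in virgin (5.05, SE 0.38, adjusted p = 9.5e-05) and 52.8-fold in pregnant mice (5.72, SE 0.38, adjusted p = 4.1e-05), and P5 in virgin mice 5.78-fold (2.53, SE 0.38, adjusted p = 0.00344). P5 exceeded P6 by 2.52 (adjusted p = 0.00215) and 4.01 (adjusted p = 0.000119). P4 minus P5 in pregnancy (1.71, adjusted p = 0.0136) was lost without P4 replicate 1 or P5 replicate 2 (adjusted p 0.0839 and 0.0949).

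Itgb4 was at 4.45 and 3.99 in virgin P4, 3.52 and 3.37 in P5 and 0.86 and 0.54 in P6, and in pregnancy at 2.10 and 3.55, 1.24 and 2.36 and -1.31 and 0.57. It was not called between P4 and P5 (0.78, SE 0.66, adjusted p = 0.663 in virgin mice, adjusted p = 0.0175 with the replicate block), and pregnant P4 and P5 overlapped (1.02, adjusted p = 0.33, and adjusted p = 0.00311 with the replicate block). Against P6 it was higher in P4 (3.52, SE 0.66, adjusted p = 0.0107) and in P5 (2.74, SE 0.66, adjusted p = 0.0231) of virgin mice, and by 3.19 (adjusted p = 0.015) and 2.16 (adjusted p = 0.0423) in pregnancy. Each of these 4 calls was lost without 1 array. The virgin P4 call was lost without P4 replicate 1, P4 replicate 2 or P6 replicate 2 (adjusted p 0.0524 to 0.0816). The virgin P5 call was lost without either array of P5 or of P6 (0.0768 to 0.116), the pregnant P4 call without P4 replicate 2 or P6 replicate 1 (0.0731 and 0.0901), and the pregnant P5 call in 8 fits (0.0604 to 0.24), those without any 1 virgin array, P5 replicate 2 or P6 replicate 1.

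Itga3, another laminin receptor subunit, was at 1.02 and 1.14 in virgin P4, -0.26 and -0.09 in P5 and -0.84 and -0.78 in P6. P4 exceeded P6 by 1.89 (SE 0.21, adjusted p = 0.000614), and P5 by 1.25 (SE 0.21, adjusted p = 0.00555), a call lost without P4 replicate 2 (adjusted p = 0.0512) and with median centring (0.85, adjusted p = 0.415). In pregnancy P4 exceeded P6 by 1.83 (adjusted p = 0.000621). Its difference from P5 was 0.77 (adjusted p = 0.0302), lost without any 1 array of P4 of either condition or of pregnant P5 (0.051 to 0.136), and the other 2 probes gave -0.83 and 1.83. For virgin P4 minus P6 those probes gave -0.04 and 2.52. Itga7, a laminin receptor of muscle, had no call in any comparison of populations (-0.96, adjusted p = 0.0518 for pregnant P5 minus P6, and adjusted p = 0.0374 with the replicate block).

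Of the 4 collagen receptor subunits Itga11 was higher in P6 in both conditions, and Itga1 was higher in P4 than P5 in both and than P6 in pregnancy. Itga11, known from fibroblasts, was at 6.63 and 5.79 in virgin and 5.35 and 6.36 in pregnant P6, while the 8 arrays of P4 and P5 ran from -0.85 to 0.90. P4 was 47.3-fold and P5 90.7-fold below P6 in virgin mice (-5.56, SE 0.40, adjusted p = 7.3e-05, and -6.50, SE 0.40, adjusted p = 1.6e-05). Itga1 was at 2.00 and 1.98 in virgin P4, -0.01 and -0.11 in P5 and 0.76 and 1.39 in P6, and in pregnancy at 2.90 and 4.20, 0.48 and 0.52 and 1.83 and 1.88. The P4 arrays were highest and the P5 arrays lowest in each condition. Itga1 was 8.28-fold higher in pregnant P4 than P5 (3.05, SE 0.37, adjusted p = 0.000722). The virgin difference (2.05, SE 0.37, adjusted p = 0.00841) was lost without P4 replicate 1, P4 replicate 2 or P5 replicate 2 (adjusted p 0.0573 to 0.0592). Virgin P4 minus P6 did not pass (0.92, adjusted p = 0.203). Pregnant P4 over P6 (1.70, adjusted p = 0.0184) was lost without either P6 array (0.0678 and 0.0801), and pregnant P5 below P6 (-1.35, adjusted p = 0.0269) without any of their 4 arrays (0.0846 to 0.102). Itga2 and Itga10 had no call, and were not well above background on 4 and 7 of the 14 arrays. The fibroblast markers were higher in P6 as Itga11 was, and their part in its level was not tested.

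Among the 9 subunits that bind fibronectin and other matrix, Itga9, a receptor of tenascin and related ligands, was low in P5. It lay at 4.33 and 4.07 in virgin P4, 0.73 and 0.39 in P5 and 3.57 and 3.27 in P6, and in pregnancy at 3.04 and 3.68, 0.43 and 0.20 and 2.45 and 3.25. The P5 arrays stood below all others, 12.4-fold below P4 in virgin mice (3.64, SE 0.30, adjusted p = 0.000169) and 8.25-fold in pregnancy (3.04, SE 0.30, adjusted p = 0.000276). Itgb5, which pairs with Itgav, was higher in pregnant P6 than in P4 (P4 minus P6 -2.02, adjusted p = 0.005) and P5 (P5 minus P6 -2.69, adjusted p = 0.000558). Itga5, the fibronectin receptor alpha subunit, was lower in pregnant P5 than in P4 (P4 minus P5 2.05, adjusted p = 0.00442) and lower than in P6 in both conditions (P5 minus P6 -1.72, adjusted p = 0.0117 in virgin and -1.20, adjusted p = 0.0394 in pregnant mice). The Itga5 calls against P6 were lost without virgin P5 replicate 1 or P6 replicate 2 in virgin mice (0.0823 and 0.0855) and in 7 fits in pregnant mice (0.0518 to 0.172), those without any 1 array of virgin P4, virgin P5 or pregnant P5, or pregnant P6 replicate 2.

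Itgb6, a subunit of epithelial cells that helps to activate TGF-beta, had its highest virgin levels in P5. It was at 0.32 and 0.26 in virgin P4, 1.33 and 0.72 in P5 and -0.02 and -0.92 in P6, and in pregnancy at 0.75 and 0.18, -0.07 and -0.41 and -0.79 and -0.62. Virgin P5 exceeded P6 by 1.49 (SE 0.33, adjusted p = 0.0152), a call lost without P5 replicate 1 or P6 replicate 2 (0.092 and 0.109), while the difference from P4 did not pass (-0.73, adjusted p = 0.254). Itga8 was called in 1 comparison, pregnant P4 minus P5 (1.34, adjusted p = 0.05 after rounding), a call lost in 10 of the 12 fits without 1 array (0.0623 to 0.237), all but those without pregnant P4 replicate 1 or P5 replicate 2, and with the scanner's log ratio (0.12, adjusted p = 0.908). Itga4, Itgav, Itgb3 and Itgb8 were called in no comparison of populations, although another Itgb3 probe gave 3.22 for pregnant P4 minus P5. With the replicate block Itgav was called in 4 of these comparisons, higher in P4 than in P5 in virgin (1.17, adjusted p = 0.00243) and pregnant mice (0.90, adjusted p = 0.00481), higher in virgin P4 than P6 (0.78, adjusted p = 0.016) and lower in pregnant P5 than P6 (-0.60, adjusted p = 0.0251).

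Of the 7 integrin subunits of blood cells, 5 had no call between populations: Itgae, Itgal, Itgam, Itgax and Itgb2. Itgb7, which pairs with Itgae or Itga4 on lymphocytes, was higher in P6. It lay at -1.97 and -2.05 in virgin P4, -2.55 and -2.76 in P5 and -0.03 and -1.0 in P6, and P5 minus P6 was -2.14 (SE 0.36, adjusted p = 0.00348). P4 minus P6 was -1.50 (adjusted p = 0.0308) in virgin mice, lost without either P4 or P5 array or P6 replicate 1 (0.0519 to 0.169). In pregnancy the differences of P4 and P5 from P6 were -1.68 (adjusted p = 0.0162) and -1.47 (adjusted p = 0.0158). The first was lost without P4 replicate 1 or either P6 array (0.0541 to 0.103) and the second without P5 replicate 1 or P6 replicate 2 (0.0685 and 0.0944). Itga2b passed between virgin P5 and P6 (-1.71, adjusted p = 0.0364) and was lost in 9 of the 12 fits without 1 array (0.0507 to 0.182), all but those without an array of virgin P4 or virgin P6 replicate 1. Of 16 leukocyte markers 1 was lower in virgin P5 than in P6 and 2 were higher and 1 lower in pregnant P5, and their part in Itgb7 was not tested.

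**Figure D4:**
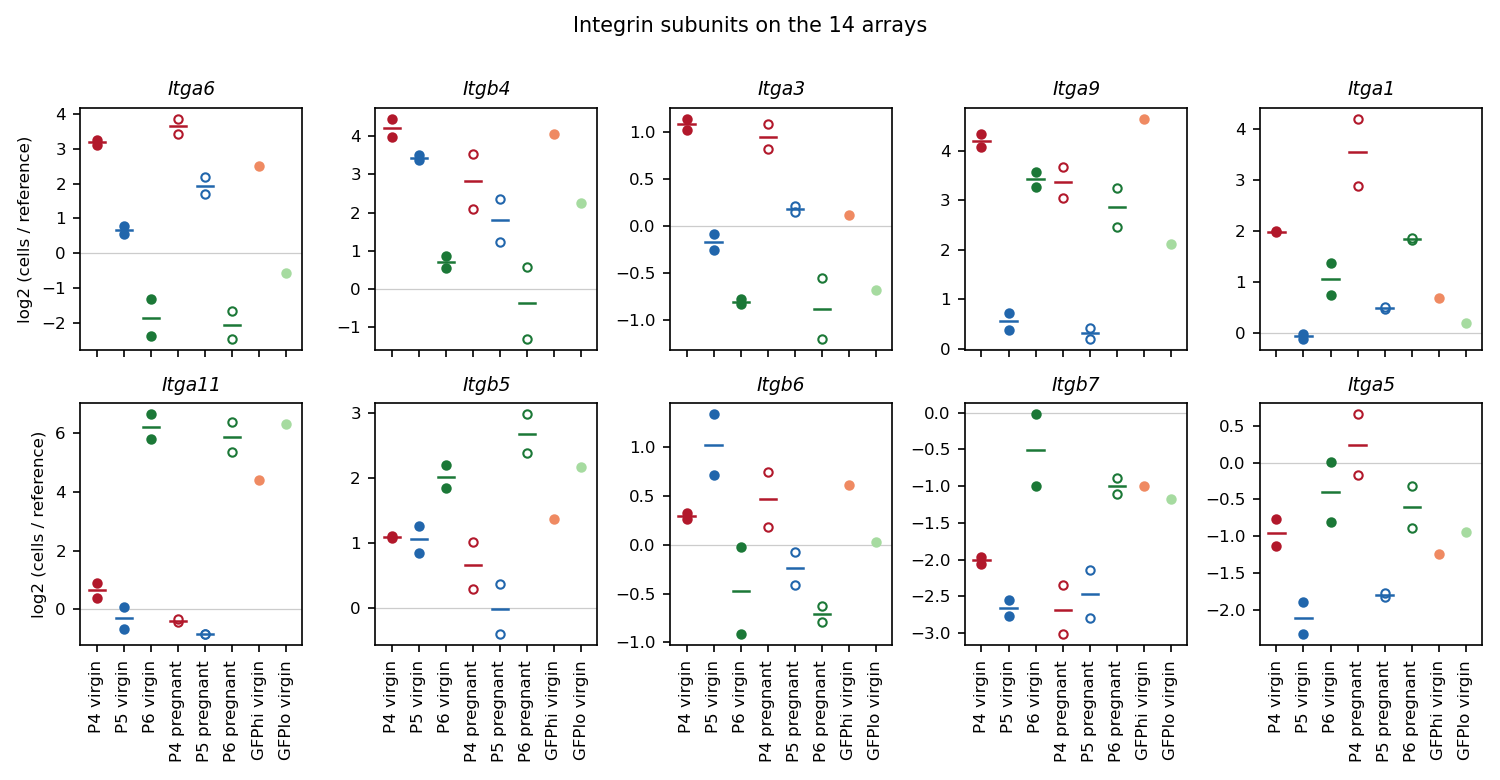
Level of 10 integrin subunits on each of the 14 arrays, as log2 of the sorted cells over the reference RNA; filled points are virgin and open points pregnant mice, bars are means of 2 arrays, and each panel has its own scale. Itga6 falls from P4 to P5 to P6 in both conditions, Itga11 stands out on the P6 arrays, and Itga9 is low on the P5 arrays.

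The other genes of this system, outside the rule, are given by lists. Of all genes, 11.4% were called between virgin P4 and P5, 10.3% between virgin P4 and P6 and 16.1% between virgin P5 and P6. In pregnancy 22.6% were called between P4 and P5 and 12.1% between P4 and P6. Of 19 further components of the basement membrane, 12 were higher and 1 lower in virgin P4 than P5 (median 1.59), and 11 higher and none lower in pregnancy. The anchoring fibril collagen Col7a1 (5.70, SE 0.37, adjusted p = 5.57e-05) and Col18a1 (4.39, SE 0.17, adjusted p = 9.63e-06) led the virgin differences, and Egflam was the lower one (-1.34, adjusted p = 0.00567). Between virgin P4 and P6 the list split, with 6 higher, led by Col7a1 (2.71, adjusted p = 0.00188) and Frem2 (2.03, adjusted p = 0.000172), and 7 lower, led by Smoc2 (-4.22, adjusted p = 2.39e-05) and Col15a1 (-3.42, adjusted p = 0.000778). Between virgin P5 and P6, 1 was higher (Papln, 1.81, adjusted p = 0.00026) and 11 were lower, led by Sparc (-6.30, adjusted p = 4.35e-05) and Fbln1 (-5.97, adjusted p = 3.65e-06).

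Of 20 genes of hemidesmosomes and focal adhesions, 12 were higher and none lower in virgin P4 than P5, and 16 higher and 1 lower in pregnancy. Against P6, 5 were higher and 1 lower in virgin P4, and 13 higher and none lower in pregnant P4. Col17a1, the hemidesmosome collagen, was higher in virgin P4 (5.66, SE 0.51, adjusted p = 0.000232), and Lims2 followed (2.83, adjusted p = 0.00781). Of 12 further receptors 4 were higher in virgin P4 than P5, led by Mcam (3.07, adjusted p = 0.00606) and the laminin receptor Bcam (2.18, adjusted p = 0.017). Against virgin P6, 4 were higher in P4, led by Bcam (2.72, adjusted p = 0.0059) and the collagen receptor Ddr1 (2.26, adjusted p = 0.00301), and 2 lower, Ddr2 (-3.65, adjusted p = 6.96e-05) and Sdc2 (-1.63, adjusted p = 0.00119). Of 16 other integrin ligands 7 were higher in virgin P4 than P5, led by Postn (5.11, adjusted p = 0.00494) and Fbn1 (3.46, adjusted p = 0.000106). Between virgin P5 and P6, Spp1 (3.83, adjusted p = 0.0224) and Cdh1 (3.73, adjusted p = 0.000149) were higher in P5, and 7 were lower, led by Fbn1 (-6.74, adjusted p = 2.21e-06) and Postn (-5.83, adjusted p = 0.00147).

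GFPhi and GFPlo, with 1 array each, allow no test, and the spread between such samples was not measured. A difference of at least 1 on the log2 scale was reached by 9 members higher in GFPhi, against 3.35% of all genes, and by 9 lower, against 2.99%. Higher in GFPhi were Col4a6 (5.30 against 1.98), Itga6 (2.50 against -0.57), Lamb3 (2.43 against -0.54) and Lama3 (3.36 against 0.75), the 4 largest. Col4a5, Itga9, Lama1 and Itgb4 were also past that size. Lama1 was not well above background in GFPlo, so its difference is given as at least 4.37-fold. Basal markers had a median level of 4.06 in GFPhi and 1.58 in GFPlo, and genes of fast skeletal muscle 2.43 and 0.13, and their part in these differences was not tested.

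Lower in GFPhi were Lama2 (1.75 against 5.90), Nid2 (-1.61 against 1.06), Nid1 (2.41 against 4.96) and Lama4 (1.63 against 3.96), the 4 largest, and Itga11, Lamb1, Lamc1, Col4a1 and Lamb2. Itga11 lay at 4.40 in GFPhi and at 0.90 and 0.40 in virgin P4, and Nid1 at 2.41 and at -0.02 and -0.25. The fibroblast median of GFPhi, 1.19, also lay above that of virgin P4, at -1.03 and -0.74, and its part in these levels was not tested.

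Pregnancy was compared with the virgin state within each population. Replicate 1 of each pregnant population was on slide 3 and scan 3, read without the scanner's extended range, and no virgin array was. These arrays had 236, 111 and 199 saturated Cy5 spots in P4, P5 and P6, against 0 to 2 on the virgin arrays. On them, an effect of the scan cannot be told apart from one of pregnancy. In P5, 11 of the 43 genes (25.6%) were called, 6 higher and 5 lower. That is close to the share of all genes, 21.4%, with 10.7% in each direction. With median centring 1 was higher and 5 were lower, where 2421 of all genes were called. In P4 and in P6 limma called none of the 43, where it called 3.75% and 0.186% of all genes, and 6 and 7 members had an unadjusted p under 0.05. With the replicate block the counts were 19 in P5 and 8 in each of P4 and P6. Of the 23653 genes tested, the replicate block called 9636 in P5, 4450 in P4 and 1022 in P6. That block lies within a condition, so its error for a pregnancy difference holds no spread between replicate numbers. The F test of whether the effect differed among P4, P5 and P6 called none of the 43, against 7.93% of all genes. Unadjusted, 5 members had a p under 0.05 in this test. With the replicate block it called 9 of the 43, and 6397 of all genes.

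In pregnant P5 the chains of the common collagen IV and a nidogen were higher. Nid2 rose from -3.29 and -3.83 to -0.44 and -0.92 (2.88, SE 0.57, adjusted p = 0.00827), Lamb1 from -1.95 and -1.88 to 0.63 and -0.02 (2.22, SE 0.51, adjusted p = 0.0161) and Col4a1 from -1.95 and -1.59 to 0.35 and -0.36 (1.76, SE 0.41, adjusted p = 0.0172). Col4a2 (1.48, adjusted p = 0.0213), Itga6 (1.28, adjusted p = 0.0458) and Lama1 (1.12, adjusted p = 0.0483) rose as well. For all 6 both pregnant arrays lay above both virgin arrays.

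Lower were Lama5, from 2.86 and 2.75 to -0.24 and 0.25 (-2.80, SE 0.58, adjusted p = 0.0105), and Col4a6, from 2.38 and 1.63 to -0.30 and -0.18 (-2.25, SE 0.37, adjusted p = 0.00373). Itgb6 (-1.27, adjusted p = 0.0277) and Lamb2 (-1.24, adjusted p = 0.0362) fell too. Another Itgb6 probe gave 0.85 and the other 2 probes of Col4a6 0.34 and -0.30. Another probe of Itgb3, which was not called, gave -2.94. Apart from Col4a6, none of the 11 kept its call in every fit that left out 1 array. The count was 1 without pregnant P5 replicate 1, 2 and 3 without virgin P5 replicate 1 and replicate 2, and 7 without either array of virgin P4. Over these fits the lost calls had an adjusted p of 0.0501 to 0.252.

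Markers moved in P5 with pregnancy too. Of 15 luminal markers 11 were lower and none higher in pregnant P5 (median -2.57), and of 13 basal markers 3 were higher and none lower (median 1.24). Of 9 genes of fast skeletal muscle, at a median level of 2.52 and 2.80 on the virgin P5 arrays, 8 were lower. The part of these shifts in the 11 changes was not tested. Outside the rule, the luminal adhesion protein Cdh1 fell (-2.53, SE 0.35, adjusted p = 0.00161) and the matrix protein Tnc, a ligand of Itga9, rose (3.14, SE 0.39, adjusted p = 0.000927). Of the 19 further basement membrane components 1 rose, Tinagl1 (1.22, adjusted p = 0.0031), and 4 fell, led by Papln (-2.61, adjusted p = 6.99e-05) and Egflam (-2.11, adjusted p = 0.00044). Of all genes 21.4% were called in this comparison, 10.7% in each direction, which is close to the share called in this list.

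In P4 and P6 the members with the largest pregnancy differences were not called. Nid2 differed by 2.25 (SE 0.57, adjusted p = 0.0744) and Itga1 by 1.56 (SE 0.37, adjusted p = 0.061) in P4. With the replicate block their adjusted p was 0.0293 and 0.0158. In P6, Lama5 differed by -1.56 (SE 0.58, adjusted p = 0.545) and Col4a1 by 1.43 (SE 0.41, adjusted p = 0.339), the latter with an adjusted p of 0.0401 under the block. Within each population both pregnant arrays of Lama5 lay below both virgin arrays, with differences of -1.52, -2.80 and -1.56 in P4, P5 and P6. Both pregnant arrays of Nid2 lay above both virgin arrays, with 2.25, 2.88 and 1.41.

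**Figure D5:**
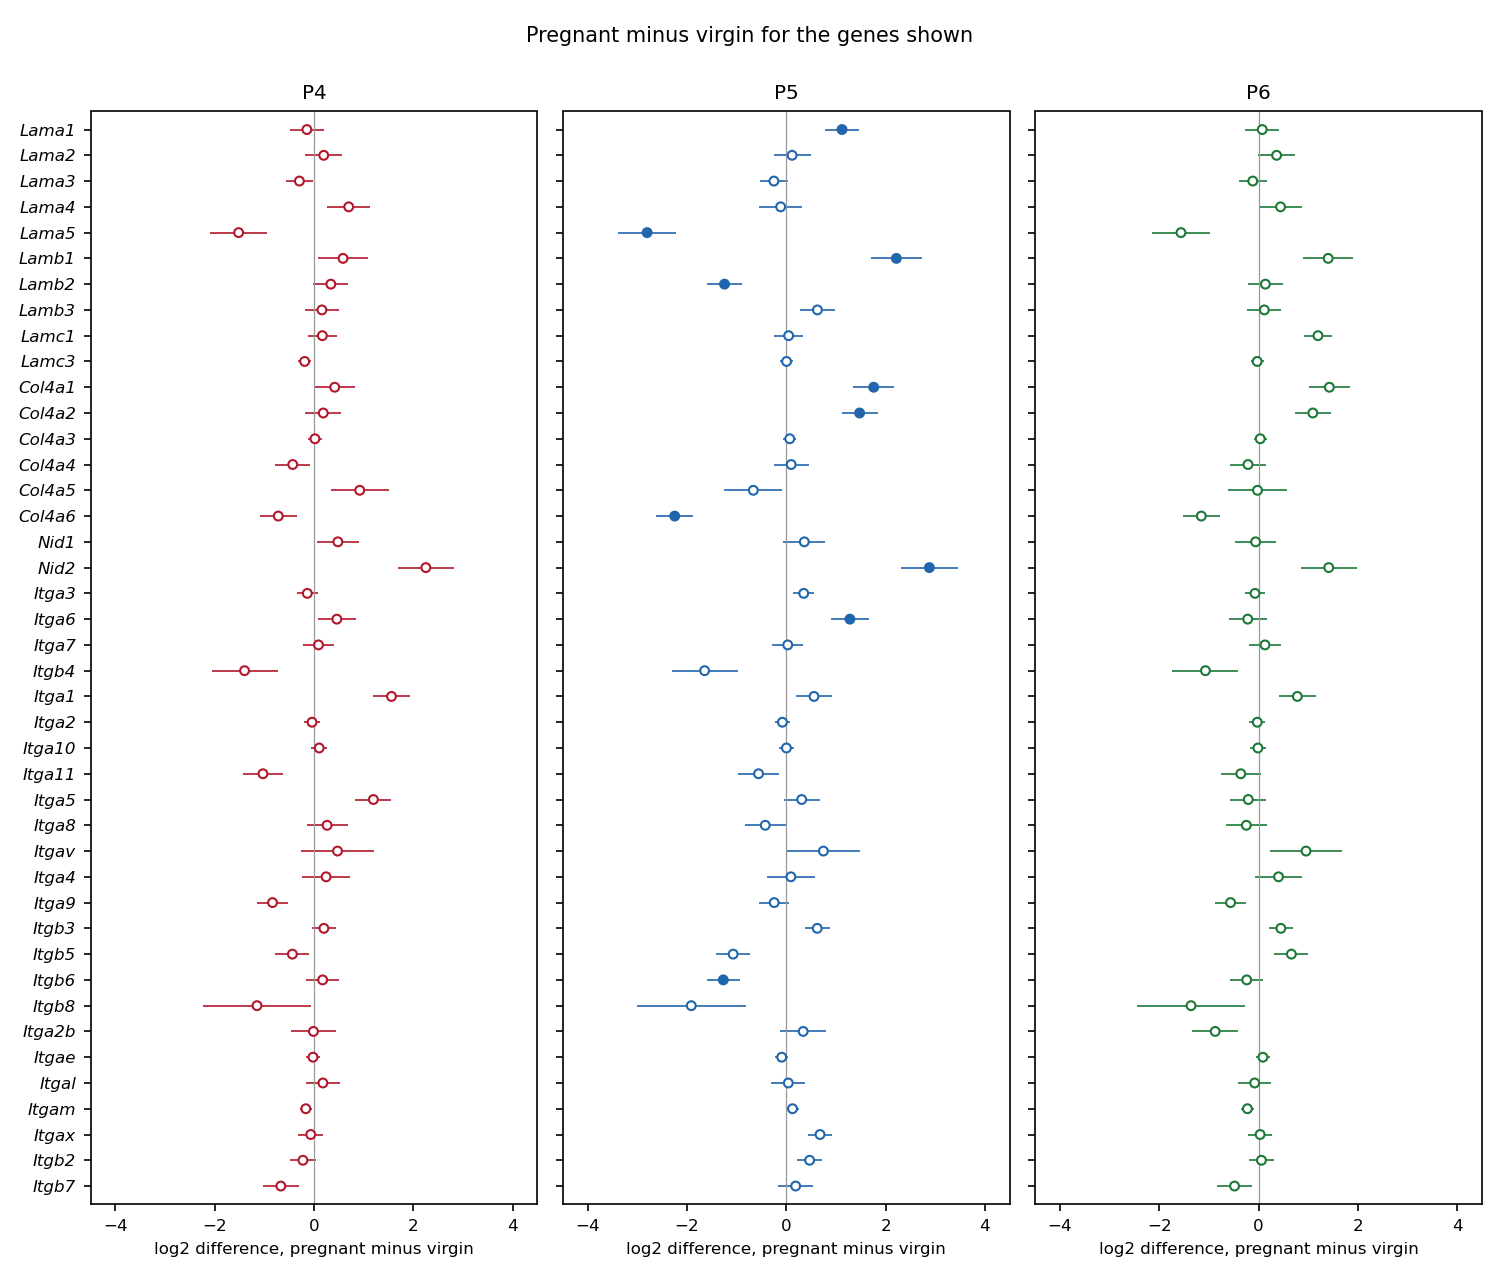
Log2 difference ± SE, pregnant minus virgin, of 42 of the genes in P4, P5 and P6; filled symbols passed limma at an adjusted p under 0.05. Only the P5 panel has filled symbols, 6 above and 4 below 0.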

How the data were processed

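Agilent mouse arrays of 2 colours were scanned with Agilent Feature Extraction 9.5.3.1, per the submitters' processing notes. Sorted cells were labelled in Cy5 and a reference mix of 11 cell lines in Cy3, with no dye swap. The deposited scanner files hold, per the file headers, intensities of signal and local background for each spot and a log10 ratio, and the deposited series table holds log2 ratios that matched it. Median Cy5 intensity was 70.9 to 196 per array; the number of arrays limits the precision.

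Control and outlier spots were left out, outlying local backgrounds were replaced by the array's median, and background was corrected by normexp (offset 50), followed by loess within arrays. Spots of a probe were averaged, probes were kept if well above background in Cy5 on both arrays of at least 1 of the 6 replicated groups, and the brightest probe stood for a gene. Limma 3.58.1 in R 4.3.3 fitted 12 arrays in 6 groups (6 residual degrees of freedom), with Benjamini-Hochberg adjustment. On data simulated for virgin P4 minus P5 over 23532 genes, 41% of changes of log2 1 and 94% of log2 3 were recovered. The simulated noise was independent between arrays, and far fewer genes were changed than were called in the data. These shares may therefore not hold for the real arrays. No 2 arrays held identical values.

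Arrays of the same number deviated together within a condition (correlation of deviations from group means 0.304 to 0.679 in virgin and 0.630 to 0.688 in pregnant mice) but not across conditions (-0.208 to 0.146), so the block was the number within a condition. Values on every array are given for Lama3, Lamb3, Col4a1, Col4a2, the nidogens, Itga6 and Itgb4, and for the 4 largest called differences in each direction of every comparison whose arrays did not overlap. 1 member counts in the totals and is not reported here. From the lists the 2 largest in each direction are named. Members and lists were chosen with earlier results of these data known. The alternatives were the scanner's ratio, the series table, median centring, backgrounds as given, no dim filter, a dim filter in both channels, the mean over probes, slide, scan or replicate blocks, only the arrays compared, no scan 3, and each array left out.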

Additional observations from a re-analysis of the deposited data

How the results depend on the processing

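Of the 118 calls of a gene in a comparison, 61 were kept under all 24 alternatives and 1 reversed: Lama1 in pregnant P4 minus P5 was 2.34 as reported and -0.80 with both the scanner's ratio and the series table. The cause was not tested. In what follows the count over all genes tested stands in brackets after each count of members. For virgin P4 minus P5, 14 genes were called (2689), and 8 with median centring (1288) and 22 with slide as a block (5525). For virgin P4 minus P6, 14 were called (2443), and 24 with slide (4989), with scan (5170) or with the replicate block (5168). For pregnant P4 minus P6, 19 were called (2854), and 8 on only the arrays compared (917), a fit with fewer samples. For pregnancy in P5, 11 were called (5055), 6 with median centring (2421), 6 with local backgrounds as given (3308) and 19 with the replicate block (9636). For pregnancy in P4, none was called (886), but 1 with the mean over probes (877). Slide gave 3 (1240), scan 2 (1755) and the replicate block 8 (4450). For pregnancy in P6, none was called (44), but 1 with scan (142) and 8 with the replicate block (1022). For the difference of the pregnancy effect among populations, none was called (1876), but 1 with the mean over probes (1841). Slide gave 8 (5146), scan 9 (6396) and the replicate block 9 (6397). The replicate block kept all 118 calls.

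Leaving out 1 array gave 10 to 16 calls for virgin P4 minus P5, 10 to 18 for P4 minus P6 and 14 to 21 for P5 minus P6. The pregnant comparisons gave 16 to 18, 14 to 21 and 16 to 21. Pregnancy gave 0 to 2 in P4, 1 to 12 in P5 and 0 to 1 in P6, and its difference among populations 0 to 1. GFPhi minus GFPlo gave 18 genes past the size, and 17 to 21 in the alternatives. Median centring moved the median of all genes to 0.16 in pregnant P4 minus P6 and 0.15 for pregnancy in P4, and the scanner's ratio to -0.17 in pregnant P4 minus P5, 0.16 in pregnant P5 minus P6 and 0.11 for pregnancy in P5. With 2 arrays a group, smaller differences can be missed, and dim signal limits Itga2, Itga10 and Lama1 in P6.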
